A study of Homo sapiens with 8 samples.

Results

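The genes described here are 31 direct targets of the tumour suppressor p53, chosen by name for their roles in cell cycle arrest, DNA repair, apoptosis and feedback on p53, out of 56638 entries in the deposited tables. The choice was made with earlier results of these data known, so counts set beside those of all genes are no independent test. Of the 31 members, 30 were used, those with a mean of at least 10 normalized reads in vector cells in the table that compares SLNCR1 with vector. The lowest member inside that threshold was TP53INP1, with a vector mean of 196 in the authors' deposited table. The member outside it was SPATA18, which had 0 reads in both SLNCR1 libraries, 1 and 2 reads in the delta-conserved libraries, 1 and 0 reads in the conserved-region libraries, and 0 reads in both vector libraries.

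RNA was sequenced from A375 cells, a human malignant melanoma line with an activated BRAF kinase, grown with 10% serum. Cells were transfected 24 h after seeding, by lipofection, and harvested 48 h later. The groups received a pcDNA3.1(-) plasmid with full-length SLNCR1, a long noncoding RNA tied to melanoma invasion, with SLNCR1 delta conserved (called delta-conserved here), which lacks the region named as conserved, with SLNCR1 conserved, which is that region alone, or with no insert (vector). Each of the 4 groups had 2 libraries, from poly(A) RNA with a kit that does not mark the strand. The constructs ask which part of the RNA goes with a change in expression. The cells were a transiently transfected population, so construct levels in single cells are not known, and in bulk RNA fewer cells with a transcript cannot be told apart from less of it per cell.

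The protein p53 is a transcription factor that DNA damage and other stresses stabilise. It binds a pair of adjacent 10-base elements near its target genes and raises their transcription. The products stop the cell cycle, repair DNA, remove damaged cells, or act back on p53 itself. In melanocytic cells p53 takes part in the response to ultraviolet light.

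The deposited means of 2 libraries were solved for the whole reads of each library. In each group, library a is the one with more reads and library b the one with fewer, and neither is tied to a replicate number. Library a and library b held 10097194 and 9090649 reads on genes with SLNCR1. The same counts were 9187241 and 8222868 with delta-conserved, 11340264 and 10280300 for the conserved region, and 12015394 and 11321294 for vector. Libraries of SLNCR1 and of delta-conserved were thus shallower than those of vector, and the part of depth in the results was not tested. The spread between libraries a and b was taken as the median absolute log2 difference over all genes with a mean of at least 10. It was widest with SLNCR1, at 0.144, against 0.101 with delta-conserved, 0.0826 with the conserved region and 0.117 with vector. Whether the 2 libraries of a group stem from separate cultures is not stated in the labels, and p-values thus measure the spread between these libraries, which may be technical. LINC00511, the entry under which SLNCR1 is read here (which of its exons were counted is not stated), averaged 875 ± 15.4 normalized counts with SLNCR1, 1012 ± 201 with delta-conserved, 1096 ± 62.9 with the conserved region and 624 ± 4.68 with vector (SD, n = 2 each). Of 9 melanocyte lineage markers, 6 had at least 10 normalized counts in every library. Their defining pigment genes TYR and DCT were near 0, averaging 0 for both genes with SLNCR1, and 0.888 ± 1.26 and 1.33 ± 1.88 with vector (SD, n = 2 each), so these pigment enzymes were all but absent from the RNA. The summed markers of this list ran from 8980 to 9004 with SLNCR1, 9102 to 9412 with delta-conserved, 8557 to 8924 with the conserved region and 7867 to 8562 with vector. Most of that sum was AXL, a receptor kinase that is not particular to melanocytes, and SOX10. The lineage regulator MITF lay the other way with SLNCR1 and delta-conserved, and above vector with the conserved region. It averaged 605 ± 92.3 with SLNCR1, 591 ± 49.5 with delta-conserved, 773 ± 25.5 with the conserved region and 716 ± 26.2 with vector (SD, n = 2 each). Among markers of other cells, the 3 leukocyte genes summed to between 0 and 3.34 and the 3 endothelial genes to between 12.1 and 27.5 in any library. The 3 keratinocyte genes summed to between 649 and 779, mostly KRT10, and the 4 fibroblast genes to at most 118. The part of these marker levels in the results was not tested.

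With full-length SLNCR1, 3 of the 30 p53 targets fell against vector and none rose, at an adjusted p under 0.05 in the authors' deposited table. They were PPM1D, XPC and AEN, and 27 did not pass. The authors' deposited table tested 33548 genes, of which 0.844% fell and 0.0388% rose, or 1.73% and 0.0795% of the 16344 genes with a vector mean of at least 10. At an unadjusted p under 0.05 the authors' deposited table held 11 of the 30 targets lower and 1 higher, beside 7.26% and 5.34% of genes at that vector mean. With delta-conserved, 6 fell, namely PPM1D, XPC, AEN, DDB2, SESN1 and BTG2, and 1 rose, PERP, in the authors' deposited table, where 1.14% of 34744 genes fell and 1.11% rose. Among genes with a vector mean of at least 10 those shares were 2.43% and 2.35%. Unadjusted, 14 targets were lower and 2 higher there, beside 7.68% and 8.99% of genes (authors' deposited table). With the conserved region alone, no target passed in the authors' deposited table, in which 6 of 34347 genes rose, or 0.0175% (0.0367% of those at a vector mean of at least 10), and none fell. There 2 targets, PMAIP1 and PLK2, were higher and 0 lower without adjustment in the authors' deposited table, beside 1.49% and 1.25% of genes. The 3 comparisons share the vector libraries.

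The size of the differences was modest. In the authors' deposited table the median log2 fold change of the 30 targets was -0.20 with SLNCR1, against -0.0036 over all genes with a vector mean of at least 10, and ran from -0.78 to 0.34. With delta-conserved the median in the authors' deposited table was -0.17, against -0.012 over all genes, and with the conserved region it was 0.062, against -0.00084. The count of targets below 0 was 20 of 30 with SLNCR1, 20 of 30 with delta-conserved and 8 of 30 with the conserved region. Over all genes, 50.6%, 52.4% and 50.3% lay below 0 in the same order. The 10 targets above 0 with SLNCR1 were CDKN1A, TNFRSF10B, BAX, PHLDA3, GDF15, TP53I3, TRIAP1, CCNG1, GADD45A and PERP.

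Each library was then tested on its own values with limma, in 1 fit of all 4 groups on log2(normalized count + 1), with Benjamini-Hochberg adjustment over 16073 genes. With SLNCR1 11 targets were lower than with vector at an adjusted limma p under 0.05 and 1 was higher, where 7.4% of all genes were lower and 3.93% higher. The added genes were DDB2, SESN1, BTG2, FAS, BBC3, APAF1, RRM2B and ZMAT3, with PERP higher. The count of lower targets rested on single libraries, and so did that of all genes. It was 5 when vector library a was left out and 7 without vector library b, where 1.87% and 4.74% of all genes were lower. Leaving out SLNCR1 library a gave 15, beside 14.7% of all genes, and leaving out SLNCR1 library b gave 9, beside 4.31%. The count of higher targets was 2 without vector library b and 3 without SLNCR1 library a, where 4.68% and 12.2% of all genes were higher. With delta-conserved 12 were lower and 2 higher by limma, where 5.24% of all genes were lower and 5.18% higher. Here the lower count was 5 without vector library a and 6 without vector library b, where 1.51% and 2.93% of all genes were lower. It was 4 without delta-conserved library a and 5 without delta-conserved library b, where 2.74% and 1.89% of all genes were lower, and 8 without either conserved-region library, where 4.04% (library a) and 4.08% (library b) were. The higher count of 2 was 3 without vector library b or either SLNCR1 library, where 4.97% to 9.1% of all genes were higher. It was 1 without either conserved-region library or without delta-conserved library a, where 1.81% to 3.19% were, and 0 without vector library a or delta-conserved library b, where 0.188% and 0.117% were. Scaling moved the balance of all genes as well: by trimmed means 2.66% were higher and 8.5% lower with SLNCR1, and 3.91% and 6.18% with delta-conserved, and by library totals 3.14% and 8.85%, and 3.12% and 7.2%. With the conserved region limma called none of the 30 in either direction, where 0.00622% of all genes were called higher. Unadjusted, limma had 3 of them higher and 0 lower, beside 2.99% and 2.45% of all genes. An exact test of 2 libraries against 2 cannot go below p = 0.333, so all tests rest on the spread shared across genes.

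**Figure D1:**
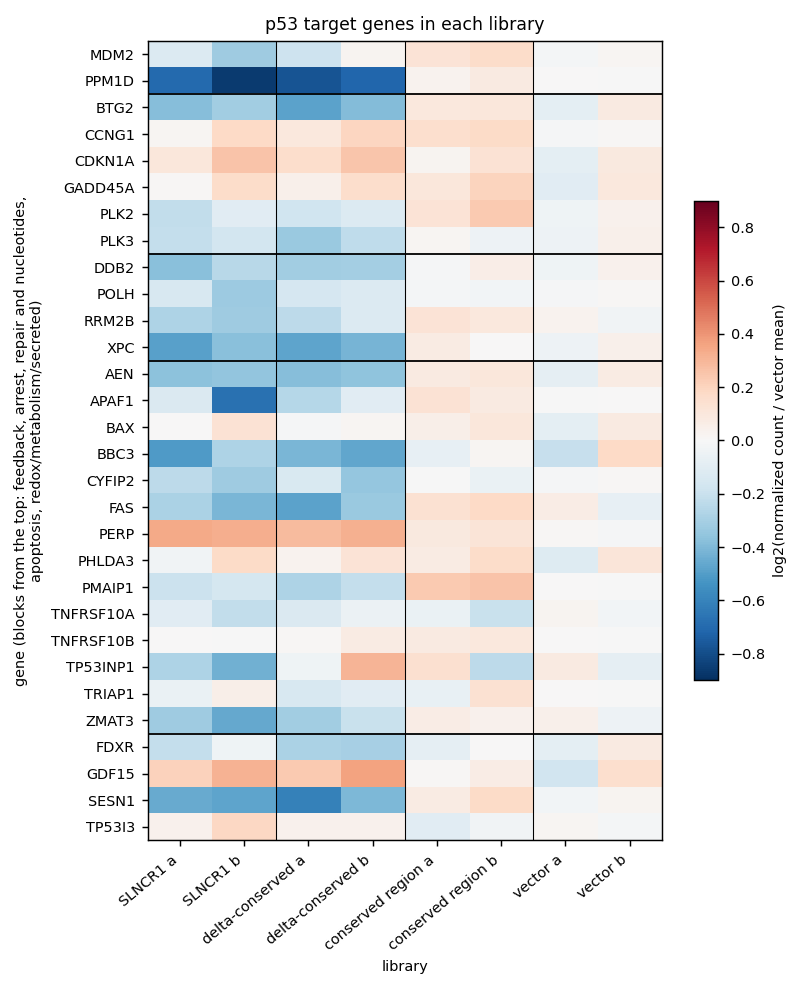
Log2 of the normalized count over the vector mean for the 30 p53 targets (rows, in blocks by role) in each of the 8 libraries (columns). PPM1D is the darkest row in the 4 SLNCR1 and delta-conserved libraries, and PERP and GDF15 are the rows most above 0 there.

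The plot of all 30 targets by library shows the same split as the counts. In 19 targets both SLNCR1 libraries lay below both vector libraries, and in 5 both lay above, where 25.4% and 27.2% of all genes did so. With delta-conserved the counts were 19 and 6, where 26% and 27.7% of all genes did so. With the conserved region the counts were 3 below and 14 above, where 16.7% and 25% of all genes did so.

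The windows of 250 bases before the start sites of the 7 targets that the authors' deposited tables call are shown first, in capitals where a 10-base p53 element was found, since p53 acts through such elements close to or inside its targets. They are RefSeq sequences of GRCh38.p14, read 5′ to 3′ on the gene's own strand, and that build differs from the hg19 build of the files. The windows are PPM1D at chr17:60599943-60600192 on the plus strand, XPC at chr3:14178602-14178851 on the minus strand, AEN at chr15:88621090-88621339 on the plus strand, SESN1 at chr6:109008989-109009238 on the minus strand, DDB2 at chr11:47214204-47214453 on the plus strand, BTG2 at chr1:203305269-203305518 on the plus strand and PERP at chr6:138107420-138107669 on the minus strand. SESN1 has 3 listed starts, and the third is shown because it holds the element. DDB2 has 2, of which the first is shown, and neither holds one.
PPM1D: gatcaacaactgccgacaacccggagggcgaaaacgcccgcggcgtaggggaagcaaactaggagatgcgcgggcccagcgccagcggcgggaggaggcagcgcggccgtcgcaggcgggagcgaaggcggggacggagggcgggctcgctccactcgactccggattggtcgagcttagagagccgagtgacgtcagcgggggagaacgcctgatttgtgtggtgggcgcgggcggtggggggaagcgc
XPC: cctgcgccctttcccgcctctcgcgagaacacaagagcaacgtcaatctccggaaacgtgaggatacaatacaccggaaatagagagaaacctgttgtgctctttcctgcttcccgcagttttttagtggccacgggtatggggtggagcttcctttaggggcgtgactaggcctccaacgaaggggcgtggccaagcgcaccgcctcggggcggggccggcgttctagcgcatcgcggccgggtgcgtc
AEN: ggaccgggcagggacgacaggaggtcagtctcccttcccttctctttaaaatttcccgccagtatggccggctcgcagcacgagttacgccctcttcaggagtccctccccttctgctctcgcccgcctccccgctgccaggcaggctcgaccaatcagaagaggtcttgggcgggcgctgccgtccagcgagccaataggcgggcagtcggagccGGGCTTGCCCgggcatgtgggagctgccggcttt
SESN1: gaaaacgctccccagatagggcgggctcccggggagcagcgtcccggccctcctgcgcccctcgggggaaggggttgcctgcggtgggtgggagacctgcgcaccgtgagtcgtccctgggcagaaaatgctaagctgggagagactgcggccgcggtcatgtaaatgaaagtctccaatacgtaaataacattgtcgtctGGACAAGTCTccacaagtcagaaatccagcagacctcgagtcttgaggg
DDB2: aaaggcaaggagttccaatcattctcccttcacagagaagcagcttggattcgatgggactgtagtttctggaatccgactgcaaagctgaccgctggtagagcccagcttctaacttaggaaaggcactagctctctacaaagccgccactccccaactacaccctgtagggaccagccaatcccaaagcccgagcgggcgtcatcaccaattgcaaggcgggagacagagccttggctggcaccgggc
BTG2: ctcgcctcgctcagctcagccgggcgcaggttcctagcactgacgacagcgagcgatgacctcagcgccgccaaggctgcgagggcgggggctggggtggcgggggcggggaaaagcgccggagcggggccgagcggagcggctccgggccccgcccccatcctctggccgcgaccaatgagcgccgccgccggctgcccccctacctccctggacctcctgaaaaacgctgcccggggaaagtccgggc
PERP: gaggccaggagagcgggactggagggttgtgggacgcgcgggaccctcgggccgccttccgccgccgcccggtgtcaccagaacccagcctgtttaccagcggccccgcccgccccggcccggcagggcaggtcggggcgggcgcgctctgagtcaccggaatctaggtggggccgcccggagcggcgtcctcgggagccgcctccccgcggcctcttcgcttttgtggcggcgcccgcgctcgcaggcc
The element searched for was the p53 decamer by its usual consensus with no mismatch, which reads the same on both strands and was searched on both. AEN holds 1 that begins 34 bases before the start, GGGCTTGCCC, and the third SESN1 start holds 1 that begins 49 bases before it, GGACAAGTCT. No decamer is in the windows printed for PPM1D, XPC, DDB2, BTG2 and PERP, which says only that those letters are not in these windows.

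Of the 31 targets, 25 had start sites in the RefSeq table, with 37 windows in all. A decamer was found for 5 of these 25 genes, or 20%, against 6.80% of all 27305 genes in the table. By window, 5 of 37 held one, against 1957 of 35116 over all genes. The members were chosen as direct p53 targets, so a higher share is built into the choice and is no result of these libraries. Besides AEN and SESN1 the 5 genes were FAS, at its second start, FDXR and PLK2. Of these 5, AEN fell with SLNCR1 and delta-conserved and SESN1 fell with delta-conserved, by the authors' deposited table, and FAS, FDXR and PLK2 did not pass there with any construct. The median share of G and C was 66% over the windows of the targets and 58% over those of all genes.

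The largest change was in a gene of feedback on p53. PPM1D encodes WIP1, a phosphatase that removes activating phosphates from p53 and from the kinases that act on it. It had 499 and 446 normalized counts in the SLNCR1 libraries, 474 and 495 in the delta-conserved libraries, 829 and 857 in the conserved-region libraries and 812 and 811 in the vector libraries. All 4 SLNCR1 and delta-conserved libraries were far below all 4 others, with no overlap. The means were 473 ± 37.7 with SLNCR1 and 484 ± 14.9 with delta-conserved, against 812 ± 0.812 with vector (SD, n = 2 each). In the authors' deposited table the log2 fold change was -0.78 with SLNCR1 (adjusted p 2.05e-07), -0.75 with delta-conserved (adjusted p 5.33e-10) and 0.039 with the conserved region (adjusted p 1). In limma the difference from vector was -0.78 ± 0.077 with SLNCR1 (log2 ± SE, adjusted p 4.70e-06). It was past the threshold in all 14 alternatives tried for SLNCR1 and in all 14 for delta-conserved.

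MDM2, the ubiquitin ligase that marks p53 for degradation, stood at 2361 and 2067 normalized counts with SLNCR1, 2269 and 2622 with delta-conserved, 2801 and 2885 with the conserved region, against 2539.5 and 2613 with vector. Both SLNCR1 libraries were below both vector libraries, and the delta-conserved pair spanned the vector pair. Its log2 fold change in the authors' deposited table was -0.22 with SLNCR1 (adjusted p 0.684) and -0.079 with delta-conserved (adjusted p 1). Neither passed. Without strand, reads of MDM2 cannot be told apart from those of CPM, a gene on the opposite strand with which it shares exon sequence.

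**Figure D2:**
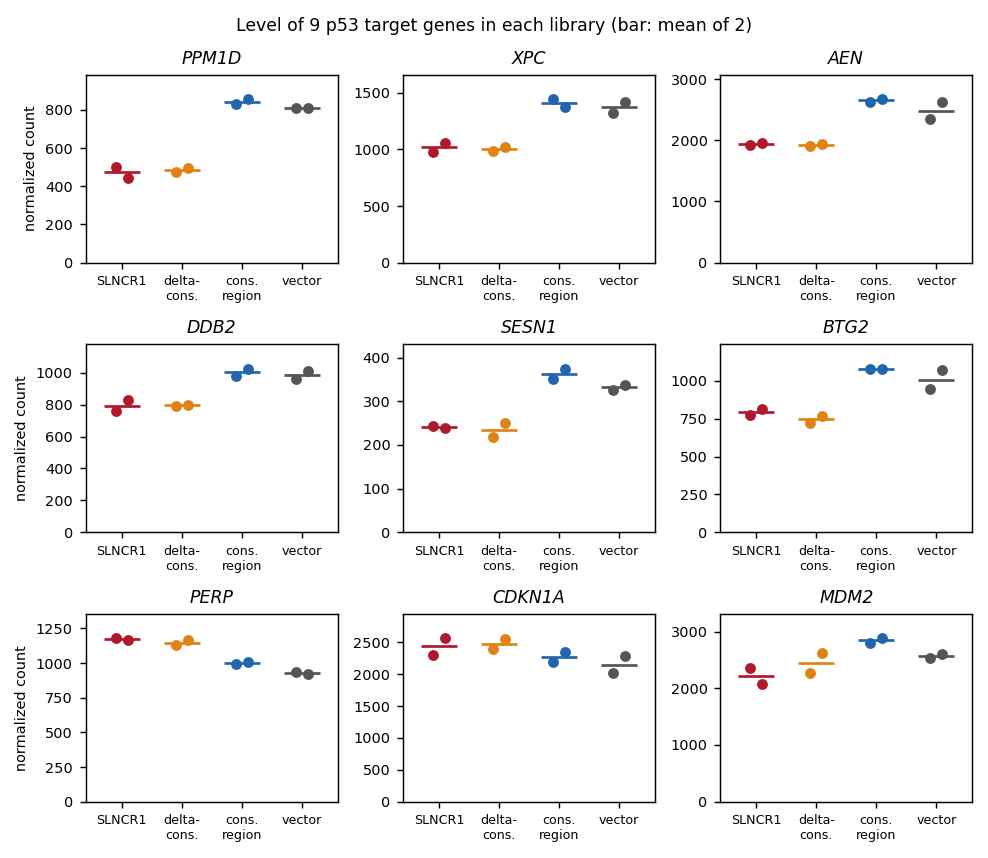
Normalized counts (linear axes from 0) of 9 p53 targets in each library, in groups from left to right SLNCR1, delta-conserved, conserved region and vector, with bars at the mean of 2. PPM1D, XPC, AEN, DDB2, SESN1 and BTG2 sit lower, and PERP higher, in the SLNCR1 and delta-conserved libraries than in the vector libraries.

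The 4 genes of DNA repair and nucleotide supply were all below 0 on the log2 scale with SLNCR1, from -0.43 to -0.23, and with delta-conserved, from -0.45 to -0.14, in the authors' deposited table. XPC, which recognises damage in global nucleotide excision repair, had 979 and 1056 normalized counts with SLNCR1, 987 and 1024 with delta-conserved, 1446 and 1376 with the conserved region, against 1326 and 1417 with vector. The highest of the 4 SLNCR1 and delta-conserved libraries was below the lowest of the other 4. XPC fell by 0.43 with SLNCR1 (adjusted p 0.0116) and by 0.45 with delta-conserved (adjusted p 5.19e-05) on the log2 scale in the authors' deposited table. In limma both differences were past the threshold in all 14 alternatives tried. LSM3 overlaps exons of XPC on the opposite strand, and its reads cannot be told apart from XPC there.

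DDB2, which also recognises ultraviolet damage and hands it to XPC, had 759.8 and 828 normalized counts with SLNCR1, 794 and 798 with delta-conserved, 979.8 and 1027 with the conserved region, against 959 and 1014 with vector. Neither the SLNCR1 nor the delta-conserved libraries overlapped the vector libraries, and the conserved-region libraries did. DDB2 fell with delta-conserved, with a log2 fold change of -0.31 in the authors' deposited table (adjusted p 0.0406). With SLNCR1 its value there was -0.31 (adjusted p 0.302, authors' deposited table), which did not pass, and in limma it was -0.31 ± 0.072 (SE, adjusted p 0.0110). That limma call was lost without either vector library, without a filter on low values, and with only the SLNCR1 and vector libraries fitted. With delta-conserved the limma call was lost without either vector library, either delta-conserved library or the filter on low values.

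RRM2B, the p53-inducible subunit of ribonucleotide reductase, had 828 and 802 normalized counts with SLNCR1, 851 and 918 with delta-conserved, 1090.3 and 1069.9 with the conserved region, against 1025 and 979 with vector. The SLNCR1 libraries lay below every vector library, as did the delta-conserved libraries. It passed in limma with SLNCR1, at -0.30 ± 0.070 (log2 ± SE, adjusted p 0.0129), and not in the authors' deposited table, where the adjusted p was 0.381. The limma call was lost without vector library a, without a filter on low values, and with only the SLNCR1 and vector libraries in the fit. POLH, the polymerase that copies past ultraviolet lesions, had 559 and 492 normalized counts with SLNCR1, 554 and 564 with delta-conserved, 608 and 607 with the conserved region, against 611 and 621 with vector. POLH passed with no construct, and a pseudogene copy and an overlapping gene, GTPBP2, make its level less certain.

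Genes of cell cycle arrest divided. BTG2, an antiproliferative partner of the deadenylase that shortens mRNA tails, had 775 and 813 normalized counts with SLNCR1, 722 and 772 with delta-conserved, 1079 and 1082 with the conserved region, against 949 and 1070.5 with vector. The 4 SLNCR1 and delta-conserved libraries were below the lower vector library. It fell with delta-conserved, by 0.44 on the log2 scale in the authors' deposited table (adjusted p 0.00643). With SLNCR1 the log2 fold change in the authors' deposited table was -0.34 and did not pass (adjusted p 0.180). Limma gave -0.34 ± 0.075 with SLNCR1 (SE, adjusted p 0.00816), a call lost without vector library b or a filter on low values.

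CDKN1A, which encodes the cyclin-dependent kinase inhibitor p21 and is the best known arrest gene under p53, did not fall. It had 2306 and 2567 normalized counts with SLNCR1, 2404 and 2561 with delta-conserved, 2188 and 2356 with the conserved region, against 2022 and 2283 with vector. The SLNCR1 and delta-conserved pairs were each above both vector libraries, and the lower SLNCR1 library stood only just above the higher vector library. The limma difference was 0.18 with SLNCR1 (log2, 95% interval 0.016 to 0.34, adjusted p 0.135) and 0.21 with delta-conserved (95% interval 0.045 to 0.37, adjusted p 0.0996).

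GADD45A, a stress protein that slows entry into mitosis, and CCNG1, a cyclin that brings a phosphatase to MDM2, had means above vector with each construct, none of which passed. GADD45A averaged 1502 ± 114 normalized counts with SLNCR1, 1514 ± 81.0 with delta-conserved, 1564 ± 74.4 with the conserved region and 1409 ± 138 with vector (SD, n = 2 each). CCNG1 averaged 1471 ± 118 with SLNCR1, 1516 ± 72.0 with delta-conserved, 1535 ± 15.4 with the conserved region and 1373 ± 14.9 with vector (SD, n = 2 each). All 6 construct libraries of CCNG1 lay above both vector libraries, and so did the conserved-region libraries of GADD45A. CCNG1 with the conserved region had an unadjusted limma p of 0.035 (adjusted p 0.83, limma), and it has a pseudogene copy that can share its reads.

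Of the stress-responsive polo-like kinases, PLK3 had 596 and 615 normalized counts with SLNCR1, 546 and 588 with delta-conserved, 697 and 668 with the conserved region, against 669 and 711 with vector. Its delta-conserved difference from vector was -0.28 ± 0.076 in limma (log2 ± SE, adjusted p 0.0241) and did not pass in the authors' deposited table (adjusted p 0.150). The limma call was lost without any 1 of the vector, delta-conserved or conserved-region libraries. PLK2 stood at 1621 and 1757 with SLNCR1, 1667 and 1736 with delta-conserved, 2054 and 2226 with the conserved region, against 1839 and 1938 with vector. The SLNCR1 and delta-conserved libraries of PLK2 were below the vector libraries and the conserved-region libraries above them, and no difference from vector passed.

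Among 14 apoptosis genes, AEN fell with SLNCR1 and with delta-conserved and PERP rose with delta-conserved there, by the authors' deposited table, and 9 of the 14 were below 0 in each of those comparisons. AEN, a nuclease of the nucleus and nucleolus that promotes apoptosis, had 1929 and 1949 normalized counts with SLNCR1, 1903 and 1935 with delta-conserved, 2632 and 2675 with the conserved region, against 2352 and 2622 with vector. Its 4 SLNCR1 and delta-conserved libraries lay within a narrow band below both vector libraries, and its conserved-region libraries lay above them. The log2 fold change in the authors' deposited table was -0.36 with SLNCR1 (adjusted p 0.0461) and -0.38 with delta-conserved (adjusted p 0.00348). The limma differences were -0.36 ± 0.068 with SLNCR1 (SE, adjusted p 0.00294) and -0.37 ± 0.068 with delta-conserved (adjusted p 0.00277), past the threshold in all 14 alternatives for each.

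PERP moved the other way. It encodes a membrane protein of desmosomes that p53 raises during apoptosis, and it is also a p63 target in epithelium. Its values were 1179.5 and 1169 normalized counts with SLNCR1, 1132 and 1164 with delta-conserved, 991 and 1009 with the conserved region, against 939 and 923 with vector. The libraries of each group sat close together, and the 4 SLNCR1 and delta-conserved libraries were above all others. PERP rose with delta-conserved, with a log2 fold change of 0.30 in the authors' deposited table (adjusted p 0.0402), and had 0.34 with SLNCR1, which did not pass there (adjusted p 0.161). In limma both passed, at 0.33 ± 0.065 with SLNCR1 (SE, adjusted p 0.00358) and 0.30 ± 0.065 with delta-conserved (adjusted p 0.00755), the second being lost without vector library a or delta-conserved library b.

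The death receptors differed among themselves. FAS, the receptor of Fas ligand, had 296 and 270.4 normalized counts with SLNCR1, 258 and 285 with delta-conserved, 396 and 407 with the conserved region, against 377 and 343 with vector. It was lower than with vector in limma, at -0.35 ± 0.097 with SLNCR1 (log2 ± SE, adjusted p 0.0313) and -0.41 ± 0.097 with delta-conserved (adjusted p 0.0129). It did not pass in the authors' deposited table (adjusted p 0.529 with SLNCR1 and 0.0702 with delta-conserved). The limma call of FAS with SLNCR1 was lost without vector library a, SLNCR1 library b or either conserved-region library. It was also lost without a filter on low values and with only the SLNCR1 and vector libraries in the fit. With delta-conserved it was lost without vector library a, either delta-conserved library or the filter on low values. ACTA2 overlaps FAS on the opposite strand. The TRAIL receptors differed little: TNFRSF10A averaged 551 ± 33.3 with SLNCR1, 579 ± 21.7 with delta-conserved, 563 ± 38.0 with the conserved region and 616 ± 16.6 with vector (SD, n = 2 each). TNFRSF10B averaged 2117 ± 9.36 with SLNCR1, 2177 ± 71.7 with delta-conserved, 2249 ± 15.1 with the conserved region and 2116 ± 1.77 with vector (SD, n = 2 each). Neither passed in any test against vector, and the SLNCR1 difference of TNFRSF10B had a 95% interval of -0.13 to 0.13 (log2, limma).

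The mitochondrial arm held both kinds. BBC3 encodes PUMA, which frees BAX and BAK to open mitochondria. It had 506 and 594 normalized counts with SLNCR1, 542 and 522 with delta-conserved, 684 and 731 with the conserved region, against 625 and 817 with vector. All 4 SLNCR1 and delta-conserved libraries were below both vector libraries, and the vector pair was the most spread of any target in that group. BBC3 passed in limma with SLNCR1 (-0.38 ± 0.11, SE, adjusted p 0.0300) and with delta-conserved (-0.43 ± 0.11, adjusted p 0.0160), not in the authors' deposited table (adjusted p 1 and 0.663). Both calls were lost without vector library b, either delta-conserved library or a filter on low values. The SLNCR1 call was also lost with only the SLNCR1 and vector libraries in the fit.

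PMAIP1 encodes NOXA, which inhibits the survival protein MCL1. Its libraries held 693 and 711 normalized counts with SLNCR1, 655 and 686 with delta-conserved, 936 and 949 with the conserved region, against 797 and 792 with vector. The order of the groups had no overlap between SLNCR1 or delta-conserved and vector, or between the conserved region and vector. The difference from vector passed in limma with delta-conserved (-0.24 ± 0.069, SE, adjusted p 0.0315), not with SLNCR1 (adjusted p 0.0999) or the conserved region (0.25 ± 0.069, adjusted p 0.830). The delta-conserved call was lost without any 1 of the vector, delta-conserved or conserved-region libraries.

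APAF1, the scaffold of the apoptosome, had 448 and 307 normalized counts with SLNCR1, 409 and 457 with delta-conserved, 536 and 519 with the conserved region, against 488 and 491 with vector. SLNCR1 library b was far below all others, and the gap between its a and b libraries was the widest of the 30 targets in that group. The limma difference of -0.40 ± 0.12 from vector with SLNCR1 (SE, adjusted p 0.0448) was lost in 9 of 14 alternatives, and without SLNCR1 library b it was -0.13 (adjusted p 0.483). BAX, which opens the mitochondrial outer membrane, averaged 1247 ± 73.1 with SLNCR1, 1194 ± 13.9 with delta-conserved, 1256 ± 29.9 with the conserved region and 1189.8 ± 98.8 with vector (SD, n = 2 each), with all pairs overlapping the vector pair.

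ZMAT3, a zinc finger protein that binds RNA, had 629 and 568 normalized counts with SLNCR1, 632 and 683 with delta-conserved, 822 and 807 with the conserved region, against 808 and 759.5 with vector. Both the SLNCR1 and the delta-conserved pair were below the vector pair. It was lower in limma with SLNCR1 (-0.39 ± 0.077, SE, adjusted p 0.00416) and with delta-conserved (-0.25 ± 0.077, adjusted p 0.0443), and in the authors' deposited table its adjusted p was 0.116 and 0.193. The SLNCR1 call was lost without vector library a, and the delta-conserved call without any 1 of the vector, delta-conserved or conserved-region libraries.

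CYFIP2, PHLDA3 and TRIAP1 passed in no test against vector. CYFIP2, a part of the complex that directs actin branching, averaged 397 ± 15.8 normalized counts with SLNCR1, 409 ± 42.1 with delta-conserved, 471 ± 12.8 with the conserved region and 481 ± 5.14 with vector (SD, n = 2 each). PHLDA3, which blocks AKT at the membrane, averaged 1563 ± 159 with SLNCR1, 1570.0 ± 70.9 with delta-conserved, 1615 ± 70.6 with the conserved region and 1486 ± 167 with vector (SD, n = 2 each). TRIAP1, which restrains apoptosis from within mitochondria, averaged 521 ± 29.5 with SLNCR1, 478 ± 9.30 with delta-conserved, 536 ± 52.4 with the conserved region and 521 ± 1.23 with vector (SD, n = 2 each). CYFIP2 was below both vector libraries in all SLNCR1 and delta-conserved libraries, and its limma adjusted p with SLNCR1 was 0.0507.

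TP53INP1, a stress protein that joins p53 to autophagy, was the only target to differ between SLNCR1 and delta-conserved at an unadjusted limma p under 0.05. It had 154 and 138 normalized counts with SLNCR1, 181 and 229.8 with delta-conserved, 206 and 158 with the conserved region, against 197 and 176 with vector. Both SLNCR1 libraries were below every other library, and the other 3 pairs overlapped each other. The difference of -0.48 ± 0.15 between SLNCR1 and delta-conserved (log2 ± SE) did not pass the adjustment over all genes (limma adjusted p 0.481), and the gene's libraries were the widest apart of the targets with delta-conserved and with the conserved region.

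Genes of redox, metabolism and secretion also divided. SESN1 encodes sestrin 1, which lowers oxidants and restrains the growth kinase mTOR. Its values were 243 and 239.5 normalized counts with SLNCR1, 218 and 251 with delta-conserved, 350.1 and 375 with the conserved region, against 326 and 338 with vector. No SLNCR1 or delta-conserved library reached the lowest vector library. SESN1 fell with delta-conserved, by 0.51 on the log2 scale in the authors' deposited table (adjusted p 0.0180). With SLNCR1 it had -0.46 in the authors' deposited table (adjusted p 0.182), which did not pass, and -0.46 ± 0.10 in limma (SE, adjusted p 0.00779), which was lost without vector library a. The delta-conserved difference was -0.50 ± 0.10 in limma (SE, adjusted p 0.00465) and was lost without vector library a or delta-conserved library a.

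GDF15, a secreted stress cytokine of the TGF-beta family, had 1094 and 1177 normalized counts with SLNCR1, 1113 and 1217 with delta-conserved, 950.5 and 991 with the conserved region, against 839 and 1053 with vector. The SLNCR1 and delta-conserved libraries were above both vector libraries, which were far apart. It passed in limma with delta-conserved (0.31 ± 0.090, SE, adjusted p 0.0363), not with SLNCR1 (adjusted p 0.0584), and in the authors' deposited table with neither. The limma call was lost in 8 of 14 alternatives, among them vector library a, either delta-conserved library or either conserved-region library left out. FDXR, the mitochondrial ferredoxin reductase, had 653 and 737 with SLNCR1, 621 and 618 with delta-conserved, 717 and 759 with the conserved region, against 713 and 803 with vector. Its delta-conserved libraries were below all others, and limma called that difference from vector (-0.29 ± 0.082, SE, adjusted p 0.0317), while the authors' deposited table did not (adjusted p 0.116). That call was lost without any 1 of the vector, delta-conserved or conserved-region libraries. TP53I3, a quinone oxidoreductase, averaged 576 ± 41.3 with SLNCR1, 547 ± 0.346 with delta-conserved, 509 ± 17.5 with the conserved region and 532 ± 9.54 with vector (SD, n = 2 each), and passed with none.

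**Figure D3:**
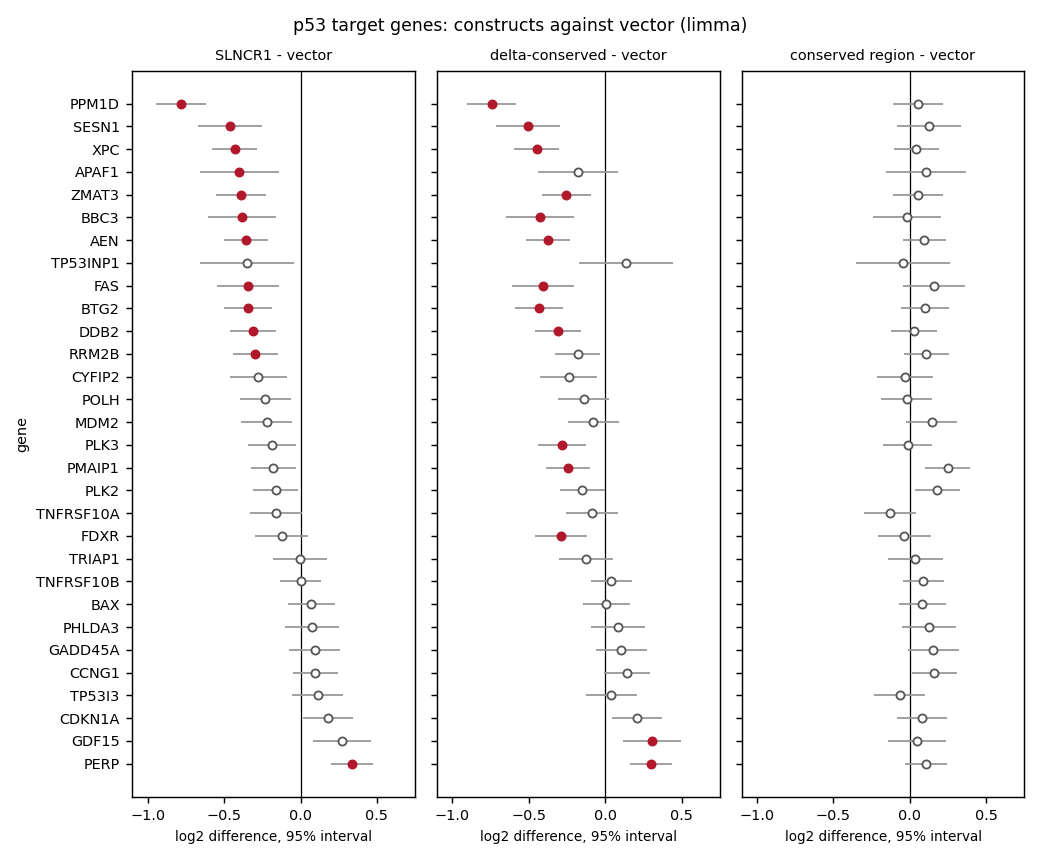
Limma log2 differences from vector with 95% intervals for the 30 p53 targets, with 1 panel for each construct and filled points for an adjusted p under 0.05. PPM1D lies lowest with SLNCR1 and delta-conserved, at -0.78 and -0.74, and no point is filled with the conserved region.

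The constructs were also set against each other directly, in limma contrasts of the same fit. Against the conserved region, SLNCR1 had 14 of the 30 targets lower and 1 higher, PERP, where 9.46% of all genes were lower and 2.05% higher. The 14 were PPM1D, XPC, AEN, DDB2, SESN1, BTG2, FAS, BBC3, PMAIP1, APAF1, RRM2B, ZMAT3, PLK2 and MDM2. The count was 9 without conserved-region library b, where 4.72% of all genes were lower. The higher count was 0 without conserved-region library a or b, where 0.237% and 0.249% of all genes were higher, and 3 without SLNCR1 library a, where 8.99% were. Both SLNCR1 libraries were below both conserved-region libraries in 19 targets and above in 3, where 27.9% and 29.3% of all genes did so.

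PPM1D differed most, at -0.84 ± 0.077 between SLNCR1 and the conserved region (log2 ± SE, limma adjusted p 1.37e-06). SESN1 followed at -0.59 ± 0.10 (adjusted p 7.47e-04, limma), and MDM2 had -0.36 ± 0.079 (adjusted p 0.00534, limma), a call lost without conserved-region library b. PERP was higher with SLNCR1 than with the conserved region, by 0.23 ± 0.065 (adjusted p 0.0278, limma), a call lost without conserved-region library a or b.

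Against the conserved region, delta-conserved had 13 targets lower and none higher in limma, where 5.79% of all genes were lower and 1.11% higher. Without adjustment limma gave 17 lower and 2 higher, beside 12.7% and 8.47% of all genes. Both delta-conserved libraries were below both conserved-region libraries in 21 targets and above in 4, where 28.5% and 28.9% of all genes did so. The 13 were PPM1D, XPC, AEN, DDB2, SESN1, BTG2, FAS, BBC3, PMAIP1, RRM2B, ZMAT3, PLK2 and PLK3. The lower count was 7 without delta-conserved library a or conserved-region library b, where 2.83% and 2.5% of all genes were lower. The higher count was 1 without either vector library and 2 without either SLNCR1 library, where 1.21% to 4.58% of all genes were higher. PPM1D differed by -0.80 ± 0.077 (log2 ± SE, limma adjusted p 2.63e-06) and BTG2 by -0.53 ± 0.075 (adjusted p 1.65e-04, limma). These contrasts share the conserved-region libraries with those of SLNCR1, and the means of the conserved region were above vector for 14 targets with no overlap of libraries, so the contrasts hold that height too.

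Between SLNCR1 and delta-conserved, limma called none of the 30 targets in either direction, and none of the 16073 genes. Unadjusted, 1 target was lower with SLNCR1 and 0 were higher, beside 5.41% and 2.58% of all genes. The SLNCR1 libraries were wholly below the delta-conserved libraries in 4 targets and wholly above in 6, where 16.9% and 16.3% of all genes were. The median difference over the targets was -0.010 on the log2 scale, with a median SE of 0.078. For the targets that fell with either construct, the 95% interval of the difference ran over -0.20 to 0.12 for PPM1D, -0.13 to 0.16 for XPC and -0.13 to 0.16 for AEN (log2, SLNCR1 over delta-conserved). It ran over -0.16 to 0.15 for DDB2, -0.17 to 0.25 for SESN1 and -0.069 to 0.25 for BTG2. The intervals were wider for APAF1, at -0.48 to 0.038, and for TP53INP1, at -0.79 to -0.18. A test that misses its threshold does not show that the constructs act alike. The absence of calls also rested on the SLNCR1 pair, whose spread was the widest of any group. With SLNCR1 library a left out, limma did call genes between these constructs. That fit holds only 1 SLNCR1 library and no spread within SLNCR1, so it cannot tell a difference between constructs from one between libraries.

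**Figure D4:**
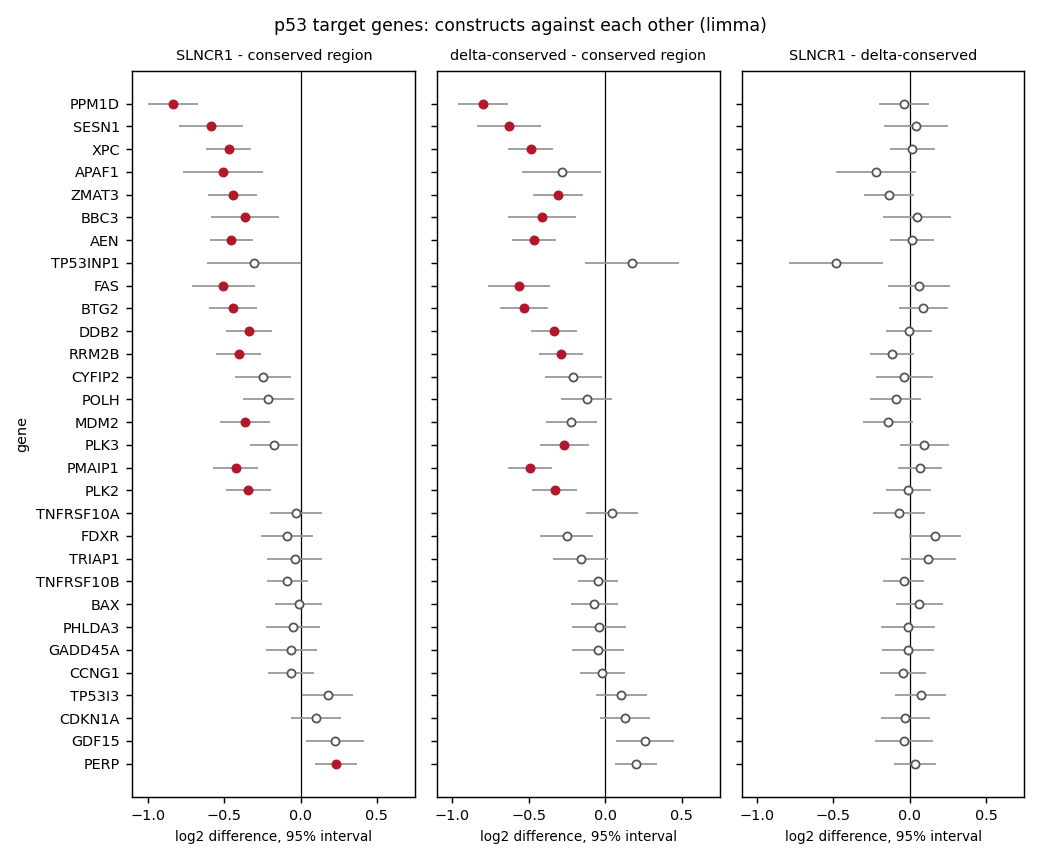
Limma log2 differences with 95% intervals for the 30 p53 targets, for SLNCR1 over the conserved region, delta-conserved over the conserved region, and SLNCR1 over delta-conserved, with filled points for an adjusted p under 0.05. Filled points number 15, 13 and 0 in the 3 panels, and in the third panel the interval of TP53INP1 lies wholly below 0.

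The rest of the pathway was read from 3 further lists. Of 25 genes of p53 control with a vector mean of at least 10, none passed with SLNCR1 or with the conserved region in the authors' deposited table, and with delta-conserved 2 rose and 1 fell. Without adjustment the authors' deposited table had 3 higher and 4 lower with SLNCR1, 4 higher and 7 lower with delta-conserved, and 0 higher and 1 lower with the conserved region. At that vector mean, 5.34% of all genes were higher and 7.26% lower with SLNCR1, 8.99% and 7.68% with delta-conserved, and 1.49% and 1.25% with the conserved region. The median log2 fold change of the 25 genes there was -0.16 with SLNCR1, -0.061 with delta-conserved and 0.024 with the conserved region. In the same order 18, 17 and 6 of the 25 lay below 0, beside 50.6%, 52.4% and 50.3% of all genes. In some of the 25 genes SLNCR1 library b lay far below SLNCR1 library a, and in others it did not. How far the SLNCR1 median and count rest on library b was not tested. MDM4, which binds and silences p53, had a log2 fold change of -0.16 with SLNCR1 (adjusted p 1) and -0.14 with delta-conserved (adjusted p 0.773) in the authors' deposited table.

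RPL5 and RPL11, ribosomal proteins that can bind MDM2 and so spare p53, rose with delta-conserved. Ribosomal protein genes have many processed pseudogenes that can share their reads, so their counts are less certain. RPL5 averaged 1613 ± 79.8 normalized counts with delta-conserved and 1238 ± 87.6 with vector (SD, n = 2 each), a log2 fold change of 0.38 in the authors' deposited table (adjusted p 0.00191). RPL11 averaged 1345 ± 68.3 with delta-conserved and 1083 ± 40.3 with vector (SD, n = 2 each), with 0.31 in the authors' deposited table (adjusted p 0.0211). WRAP53, a protein that brings telomerase RNA to Cajal bodies, fell with delta-conserved, at -0.35 in the authors' deposited table (adjusted p 0.0347). Without strand, its counts are less certain.

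Of 55 further p53 targets outside the 31, 3 fell with SLNCR1, none rose and 52 did not pass in the authors' deposited table. They were KLF4, a transcription factor of differentiation, at -0.68 on the log2 scale (adjusted p 4.41e-05, authors' deposited table), EDA2R, a receptor of the TNF family, at -0.75 (adjusted p 4.38e-04), and FBXW7, a ubiquitin ligase subunit that limits MYC and cyclin E, at -0.52 (adjusted p 0.0154). With delta-conserved 3 fell, KLF4 at -0.68, EDA2R at -0.61 and FBXW7 at -0.45, and 2 rose, TGFA at 0.32 and DDIT4 at 0.33, in the authors' deposited table. TGFA is a ligand of the EGF receptor and DDIT4 a stress inhibitor of mTOR. DDIT4 had 874 and 959 normalized counts with SLNCR1, 972 and 979 with delta-conserved, 785 and 842 with the conserved region, against 718 and 834 with vector. None passed with the conserved region. Without adjustment the authors' deposited table had 3 of this list higher and 11 lower with SLNCR1, 7 higher and 15 lower with delta-conserved, and 0 in either direction with the conserved region. Of all genes with a vector mean of at least 10, 5.34% were higher and 7.26% lower unadjusted with SLNCR1. The shares were 8.99% and 7.68% with delta-conserved, and 1.49% and 1.25% with the conserved region. After adjustment 0.0795% rose and 1.73% fell with SLNCR1, and 2.35% and 2.43% with delta-conserved. The median log2 fold change of this list in the authors' deposited table was -0.029 with SLNCR1, -0.044 with delta-conserved and 0.017 with the conserved region, nearer to 0 than that of the 30 targets in each.

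KLF4 had 422 and 406 normalized counts with SLNCR1, 403 and 432 with delta-conserved, 662 and 675 with the conserved region, against 626 and 705 with vector. EDA2R had 230.5 and 193 with SLNCR1, 256 and 211 with delta-conserved, 365 and 397 with the conserved region, against 357 and 355 with vector. In both genes the SLNCR1 and delta-conserved libraries lay below all others, as PPM1D did.

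The last list held 26 cell cycle genes that p53 lowers through p21 and the DREAM repressor complex. None passed with SLNCR1 in the authors' deposited table, with 7 higher and 0 lower before adjustment. With delta-conserved 2 rose, CKS2, a small cyclin-dependent kinase subunit, at 0.35 on the log2 scale (adjusted p 0.0486, authors' deposited table) and TOP2A, the mitotic topoisomerase, at 0.23 (adjusted p 0.0410), with 9 higher and 0 lower before adjustment. CKS2 had 570 and 661 normalized counts with SLNCR1, 628 and 644 with delta-conserved, 520 and 560 with the conserved region, against 483 and 513 with vector. None of the list passed with the conserved region, and 0 were at an unadjusted p under 0.05 in either direction in the authors' deposited table. Of all genes with a vector mean of at least 10, 2.35% rose with delta-conserved after adjustment. Before adjustment 5.34% of them were higher and 7.26% lower with SLNCR1. Those shares were 8.99% and 7.68% with delta-conserved, and 1.49% and 1.25% with the conserved region. The log2 values of 25 of the 26 were above 0 with SLNCR1, 23 with delta-conserved and 20 with the conserved region, with medians of 0.15, 0.13 and 0.044 in the same order in the authors' deposited table. Over all genes with a vector mean of at least 10, 50.6%, 52.4% and 50.3% lay below 0 there. Their medians were -0.0036, -0.012 and -0.00084. In limma 4 of the list were higher with SLNCR1 and 4 with delta-conserved, where 3.93% and 5.18% of all genes were higher.

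**Figure D5:**
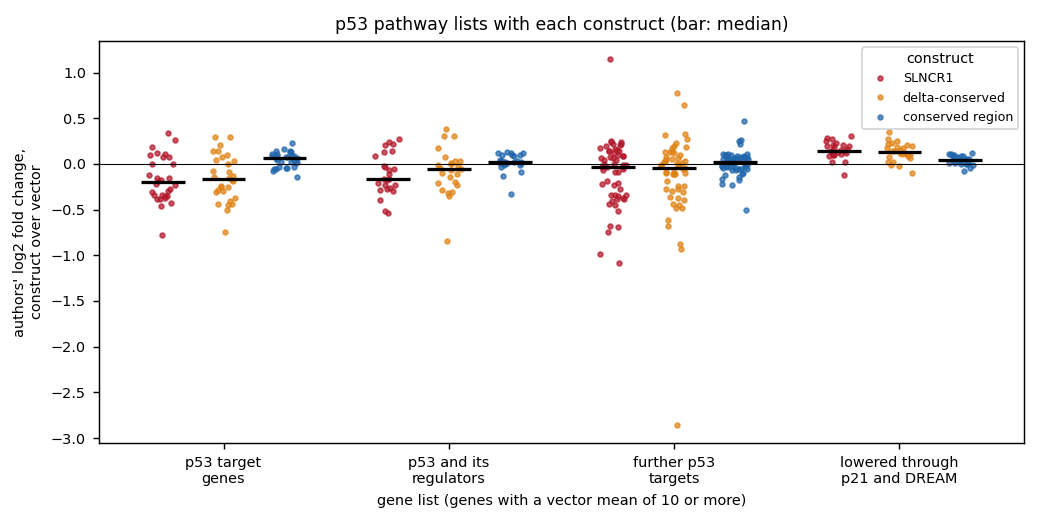
Log2 fold change against vector in the authors' deposited tables for each gene with a vector mean of at least 10 in the 4 p53 lists, by construct, with bars at the median. The medians of the 30 p53 targets lie at -0.20 and -0.17 with SLNCR1 and delta-conserved, and those of the p21 and DREAM list at 0.15 and 0.13.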

How the data were processed

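RNA of A375 cells was sequenced in 4 groups of 2 libraries. The submitters' processing notes name the tools STAR, featureCounts and DESeq and the build hg19. Tool versions and the annotation release are not given in these sources. The authors deposited 3 tables, 1 per construct, each with vector as reference. The signal columns hold group means of size-factor-normalized reads, which the authors computed table by table, per the file headers and the values. The fold change is the ratio of the authors' construct mean to their vector mean, as deposited, and log2 was taken of the deposited ratio here. Raw and adjusted p-values are the authors', and an adjusted p under 0.05 in the deposited tables was the main call.

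Each deposited mean adds whole read counts of 2 libraries, each divided by its own size factor, so the reads of single libraries could be solved from it. The solution was unique for 100% of the genes detected in vector and SLNCR1, 99.9968% in delta-conserved and 99.9806% in the conserved region, and for all members; the solver was tested on simulated data. Reads were normalized by median-of-ratios size factors over all 8 libraries and tested with limma 3.58.1 in R 4.3.3, on log2(normalized count + 1). A minimum mean of 10 left 16073 genes, with 4 residual and 13.6 prior degrees of freedom. The pseudocount of 1 understates changes of low genes. Count models were not run. Normalized counts are given as mean ± SD over 2 libraries. Alternatives covered the pseudocount, the filter, the scaling, the threshold, the groups in the fit and each library left out.

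Members and lists were chosen with earlier results of these data known. All members could be named; of the other lists, MDM4 and up to 5 genes with the lowest deposited p among those that passed (1 further gene is not reported here). Promoter windows are from RefSeq (GRCh38.p14), and exon overlaps from GENCODE release 29. Of the members, 14 share exon sequence with another gene there, and CCNG1, POLH and TRIAP1 have pseudogenes named after them. Python 3.11.15, pandas 2.3.3, numpy 2.4.6 and matplotlib 3.10.9 were used.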

Additional observations from a re-analysis of the deposited data

How the results depend on the processing

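No paired analysis was possible because the recovered libraries carry no replicate number. The medians of the authors' deposited fold changes over the 30 members kept their sign and stayed within the spread between libraries under the 3 alternatives run for them. Those alternatives could hardly move the medians. A vector mean of at least 100 kept the same 30 members, and members of any level added only SPATA18. Limma used the same reads, so the 3 are no independent check. The median of the 4 redox, metabolism and secreted members with the conserved region was -0.016 in the authors' deposited table and 0.0050 in limma. Of 738 alternatives to calls of single members, 614 kept the call, 124 lost it and 0 turned direction; scaling by trimmed means or library totals moved the median of all genes against vector by -0.058 to -0.024 on the log2 scale. Taking limma in place of the authors' deposited table moved lower members with SLNCR1 from 3 to 11 and with delta-conserved from 6 to 12, and higher members from 0 to 1 and from 1 to 2. In the same way genes of p53 control with SLNCR1 became 4 lower and 2 higher, and with delta-conserved 4 lower and 3 higher. Further targets became 11 lower and 3 higher with SLNCR1, and 12 lower and 4 higher with delta-conserved. The p21 and DREAM list became 4 higher with each. By limma 7.4% of all genes were lower and 3.93% higher with SLNCR1, and 5.24% and 5.18% with delta-conserved. At an adjusted p under 0.01 in the authors' deposited table, 1 member was lower with SLNCR1 and 0 higher with delta-conserved. At 0.1, 3 genes of p53 control and 7 further targets were lower with delta-conserved. In limma without a filter on low values, 5 members were lower with SLNCR1, 5 lower and 1 higher with delta-conserved, and 0 higher with SLNCR1 than with the conserved region. With only the SLNCR1 and vector libraries in the fit, 6 members were lower, where 4.84% of all genes were. Trimmed means and library totals each left 1 higher with delta-conserved, where 3.91% and 3.12% of all genes were. At 0.1 in limma, 2 were higher with SLNCR1 than with vector, where 1406 of 16073 genes were. At that threshold 2 were higher with delta-conserved than with the conserved region, where 439 of 16073 genes were. With 1 library left out, the share of all genes called against vector with SLNCR1 or delta-conserved moved too. Leaving out 1 library gave, against vector, 5 to 15 lower and 1 to 3 higher with SLNCR1, 4 to 14 lower and 0 to 3 higher with delta-conserved, and 0 with the conserved region. Between constructs it gave 9 to 15 lower and 0 to 3 higher for SLNCR1 over the conserved region, 7 to 16 lower and 0 to 2 higher for delta-conserved over the conserved region, and 0 to 2 lower for SLNCR1 over delta-conserved. The filter's count fell where 37939 genes in place of 16073 were tested; other causes were not tested.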

Other observations

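Within groups, the p53 targets were compared between the deeper library a and the shallower library b. Of the 30 targets, 17 were higher in library b with SLNCR1, 27 with delta-conserved, 21 with the conserved region and 19 with vector, in counts already scaled for depth. These are 56.7%, 90%, 70% and 63.3% of the targets, beside 51.6%, 53.4%, 54% and 54.2% of all genes in the same order. The median absolute log2 difference between libraries a and b over the targets was 0.123 with SLNCR1, 0.0836 with delta-conserved, 0.0578 with the conserved region and 0.0777 with vector, below that over all genes in each group. All genes are here those with a mean of at least 10 normalized counts. The 30 targets all had a vector mean of at least 196, and the part of expression level in their smaller spread was not tested. The widest gaps were 0.54 for APAF1 with SLNCR1, 0.34 for TP53INP1 with delta-conserved, 0.38 for TP53INP1 with the conserved region and 0.39 for BBC3 with vector.

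Set against each vector library in turn, the median log2 difference of the 30 targets was below 0 for every SLNCR1 and delta-conserved library. It ran from -0.25 to -0.15 over the 4 pairings of an SLNCR1 and a vector library and from -0.20 to -0.11 over those of delta-conserved. For the conserved region it ran from 0.0085 to 0.11.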
